A study of Homo sapiens with 6 samples.

Results

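Chemokines, interleukins, ligands of the tumor necrosis factor (TNF) superfamily, colony-stimulating factors and interferons were examined in NCI-N87 cells with and without depletion of SCAMP1. The genes were taken by symbol from the protein-coding genes of the expression table: CXCL, CCL, IL, TNFSF, CSF and IFN symbols of ligands, together with TNF, LTA, LTB, LIF, TSLP and CX3CL1. This rule gave 118 ligand genes among 58735 genes, of which 19951 were protein-coding. The NCI-N87 line is derived from a human gastric carcinoma, and SCAMP1 is a membrane protein of the vesicles that recycle material between the cell surface and the interior. The cells were grown in RPMI medium with fetal bovine serum, exposed to lentivirus with polybrene for 24 h and kept as stable populations under puromycin (2 μg/ml). The control group (shNC, 3 libraries) carried the vector, which by the study's methods held no insert, and the other group (shScamp1, 3 libraries) carried the vector with a single SCAMP1 shRNA (shS1#1 in the study). The 2 groups therefore shared the infection and the selection, but only the shScamp1 group carried an shRNA. Carrying an shRNA and losing SCAMP1 cannot be told apart in this design. No library with a second shRNA or with SCAMP1 put back was analysed here. The labels call the 3 libraries of a group biological replicates but do not state that they came from separate infections, so the p-values measure only the spread between these libraries, which may be technical.

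These ligands are secreted or surface proteins that carry messages between cells. Chemokines bind G protein-coupled receptors and steer migrating leukocytes, and the CXC chemokines with the ELR motif attract neutrophils through CXCR1 and CXCR2. TNF superfamily ligands bind receptors of the matching superfamily and can trigger cell death or NF-kappaB signaling, whereas interferons and most interleukins act through receptors coupled to JAK and STAT proteins. Gastric epithelial cells make several of them in response to infection and injury.

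The libraries held between 14311769 and 15988700 reads on genes, of which 4809 to 6629 fell on the 118 ligand genes. SCAMP1 itself measured 12.6, 12.1 and 11.5 FPKM (fragments scaled to the length of the gene and the size of the library) in the shNC libraries and 1.70, 1.37 and 1.99 FPKM in the shScamp1 libraries, so the groups did not overlap (log2 fold change -2.78, limma adjusted p = 0.000248). Replicate 2 of shScamp1 stood apart, with 9.21% of its reads on mitochondrial genes against 6.09% to 6.78% in the other libraries. It also had the lowest value of its group for 18 of the 21 ligand genes with enough expression to test (85.7%), against 44.2% of all genes tested. For the tested ligand genes, both values are given where leaving it out changed a call or moved a named value clearly. For the other genes this was done only in part. All 11 epithelial markers examined were expressed, with EPCAM at 141 to 156 FPKM, and 7 of them rose (63.6%, against 8.82% of all genes tested). KRT8, 1 of them, rose from 1491, 1522 and 1588 FPKM to 3003, 3129 and 2874 FPKM. The count that rose was 8 without shScamp1 replicate 2 and 5 without shScamp1 replicate 3 or any 1 of the shNC replicates. Of 19 leukocyte markers, 2 were expressed enough to test and CD3D, MS4A1 and FCGR3A were among those with 0 reads in every library. Their summed level was 4.44 to 5.11 FPKM in shNC and 5.15 to 7.90 FPKM in shScamp1 libraries, and without the B cell gene CD79A it was 3.28 to 4.04 and 3.31 to 3.85 FPKM. CD79A itself rose from 0.965, 1.16 and 1.08 FPKM to 4.05, 1.85 and 3.82 FPKM (log2 fold change 1.44, limma adjusted p = 0.0267), a call that was lost when any library other than shScamp1 replicate 2 was left out. Of 12 stromal and endothelial markers, 1 could be tested, COL1A2, DCN, LUM and PDGFRA had 0 reads throughout, and the summed level was 0.735 to 0.946 FPKM in shNC and 1.20 to 1.28 FPKM in shScamp1 libraries. The part of these markers in the ligand values was not tested.

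Most of the 118 ligand genes were silent or nearly silent in these cells. No read was found for 41 of them in any library, among them TNF, LTB, IL6, TSLP, CXCL9, CXCL12, CCL3, CCL4 and IFNG. Another 56 had reads but a mean under 0.5 FPKM, the minimum for the test, and 37 of these never exceeded 5 reads in a library. The 21 that were tested comprised 2 of 24 CC chemokines, 6 of 15 CXC and CX3C chemokines, 5 of 14 TNF superfamily ligands, 7 of 41 interleukins with LIF and TSLP, 1 of 21 interferons and 0 of 3 colony-stimulating factors. The lowest mean among them was 0.532 FPKM (TNFSF12), and the highest mean that stayed below the minimum was 0.462 FPKM (IFNA1). FPKM values are per length, so the levels of different genes can be set side by side.

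The leukemia inhibitory factor LIF, a cytokine of the IL-6 family, was the most highly expressed ligand and took 31.7% to 37.5% of all reads on the ligand genes. It measured 34.5, 35.7 and 35.8 FPKM in shNC and 41.5, 28.1 and 38.3 FPKM in shScamp1 libraries. The transmembrane chemokine CXCL16 followed with 19.9, 20.0 and 21.7 FPKM in shNC and 21.3, 18.6 and 21.2 FPKM in shScamp1 libraries. The inflammasome-activated cytokine IL18 measured 16.5, 17.3 and 16.6 FPKM in shNC and 18.3, 16.1 and 18.1 FPKM in shScamp1 libraries. The groups overlapped for each of these 3 genes. Their log2 fold changes were 0.01 (95% confidence interval -0.35 to 0.36), -0.01 (-0.21 to 0.18) and 0.05 (-0.13 to 0.23), with limma adjusted p of 0.985, 0.926 and 0.665. Without shScamp1 replicate 2, the values of LIF no longer overlapped and its log2 fold change was 0.17 (limma adjusted p = 0.0424). In the shNC cells CCL24, CXCL1 and CXCL5 came next in order, and the plot of levels by library shows where this order changed with SCAMP1 depletion.

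**Figure D1:**
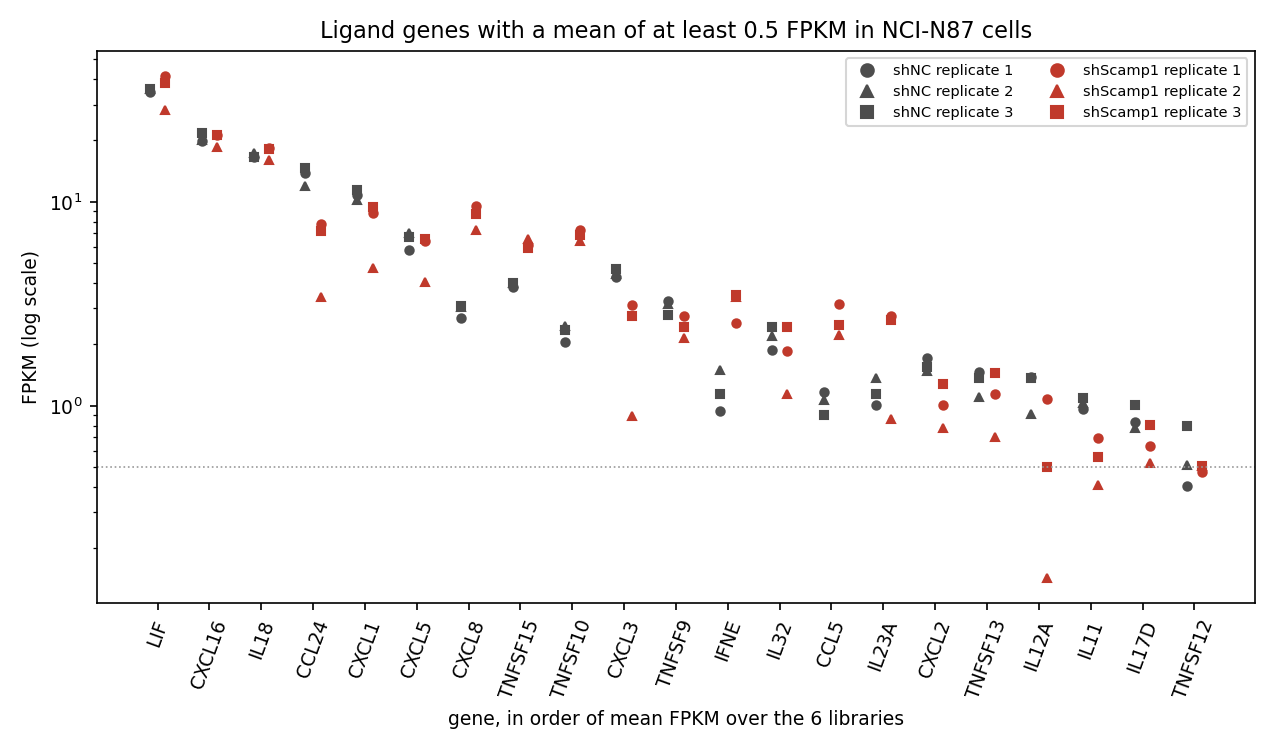
FPKM of the 21 tested ligand genes on a log axis, with 1 point for each of the 3 shNC (dark) and 3 shScamp1 (red) libraries, replicates by shape, and the minimum mean of 0.5 FPKM as a dotted line. LIF, CXCL16 and IL18 lie highest with mixed points, CXCL8, TNFSF10, IFNE and CCL5 separate upward in shScamp1, and the red triangle of replicate 2 is the lowest red point in 18 of the 21 genes.

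SCAMP1 depletion was accompanied by a rise of 5 ligand genes, TNFSF10, CXCL8, IFNE, CCL5 and TNFSF15, and a fall of 1, CCL24. The 5 that rose were 23.8% of the 21 tested, against 8.82% of the 15556 genes tested that were higher, and the 1 that fell compares with 5.17% of all genes that were lower. An absolute log2 fold change above 1 was reached by 4 of the 5 that rose and by CCL24, where 2.42% of all genes passed both criteria upward and 0.746% downward. With 21 genes such shares rest on few counts. The groups did not overlap in 11 of the 21 genes (52.4%), 5 higher and 6 lower in shScamp1, against 41.4% of all genes tested. The median log2 fold change was -0.22 over the 21 genes and -0.02 over all genes tested, and 12 of the 15 genes that missed the threshold had a value below 0. Leaving out shScamp1 replicate 2 brought this median to -0.02. The calls were then 7 higher (with LIF and IL23A) and 3 lower (CCL24, CXCL1 and CXCL3). That fit called more of all genes, 2296 higher and 2078 lower of 15458, against 1372 and 805 of 15556 in the main fit. Fold changes were computed on log2(FPKM + 0.1), which understates the change of weakly expressed genes, and in such bulk RNA fewer expressing cells and less RNA per cell cannot be told apart.

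**Figure D2:**
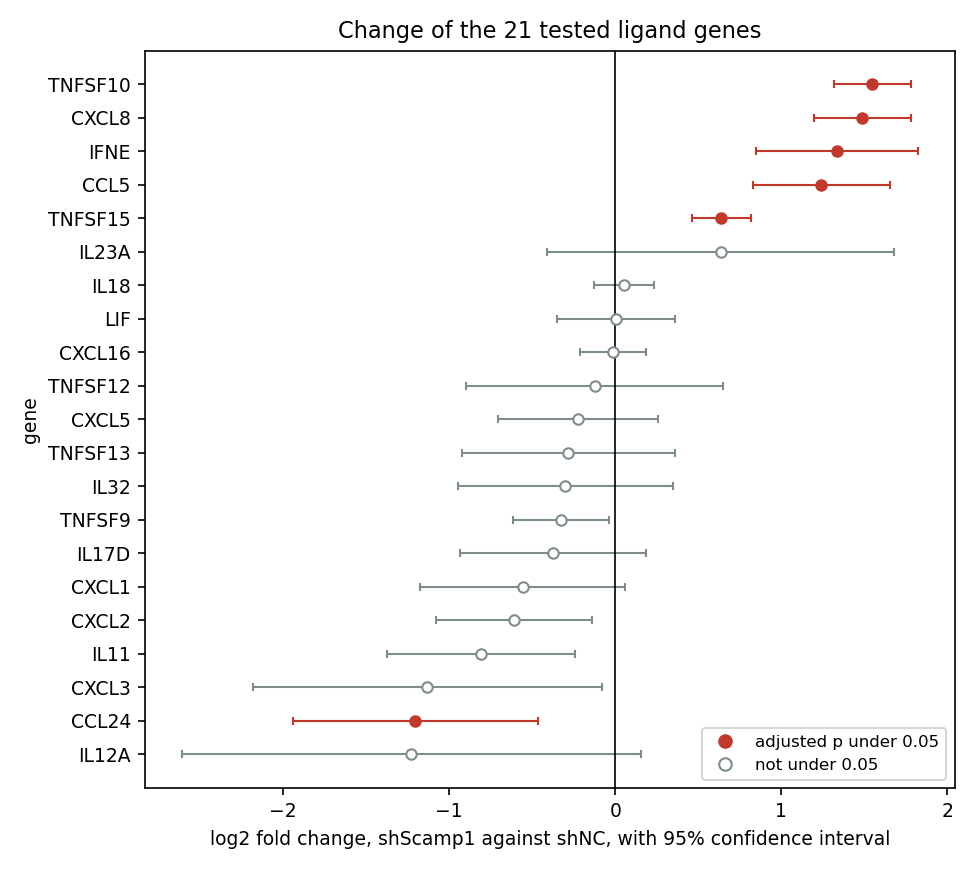
Log2 fold change of each of the 21 tested ligand genes, shScamp1 against shNC, with its 95% confidence interval (3 libraries per group). Filled red points mark an adjusted p under 0.05, with 5 genes to the right of 0 and CCL24 to the left, and 12 of the 15 open points lie left of 0.

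Genes of the ELR CXC chemokines lie together on chromosome 4, and the promoters of the expressed members are shown because 1 of them, CXCL8, moved apart from the others. The sequences come from RefSeq (GRCh38.p14) and end at the base before the annotated transcription start, in 5′ to 3′ direction. Capitals mark GGAATTTCC, the letters of a kappaB site, and in CXCL8 also TGACTCA, the letters of an AP-1 site. Both were searched on both strands.
CXCL8 (chr4:73740409-73740568, forward strand): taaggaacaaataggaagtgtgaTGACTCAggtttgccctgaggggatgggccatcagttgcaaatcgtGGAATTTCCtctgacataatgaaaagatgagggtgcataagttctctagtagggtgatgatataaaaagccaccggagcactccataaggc
CXCL1 (chr4:73869233-73869392, forward strand): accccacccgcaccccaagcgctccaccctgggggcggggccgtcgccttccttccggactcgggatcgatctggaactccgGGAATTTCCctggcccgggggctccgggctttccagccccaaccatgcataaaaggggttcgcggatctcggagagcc
CXCL2 (chr4:74099196-74099355, reverse strand): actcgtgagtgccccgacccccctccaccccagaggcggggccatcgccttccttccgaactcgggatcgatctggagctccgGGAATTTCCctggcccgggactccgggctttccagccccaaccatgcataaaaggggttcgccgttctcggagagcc
CXCL3 (chr4:74038690-74038849, reverse strand): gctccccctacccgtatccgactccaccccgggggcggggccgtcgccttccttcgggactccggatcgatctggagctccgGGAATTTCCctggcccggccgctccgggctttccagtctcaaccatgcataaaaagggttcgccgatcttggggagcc
CXCL5 (chr4:73998678-73998837, reverse strand): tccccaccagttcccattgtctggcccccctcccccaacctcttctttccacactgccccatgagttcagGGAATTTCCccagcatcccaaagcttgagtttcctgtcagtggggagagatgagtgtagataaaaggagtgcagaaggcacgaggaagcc

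All 5 promoters held GGAATTTCC, from base -91 to -83 before the start in CXCL8, -78 to -70 in CXCL1 and CXCL3, -77 to -69 in CXCL2 and -90 to -82 in CXCL5. Over the 250 bases before the start, of which the bases nearest to it are printed, this stretch occurred in 0.413% of 35116 RefSeq promoters. Of the 21 tested ligand genes 16 had a promoter in the RefSeq set, and these 5 were the ones that held it. The site was preceded by G and followed by C in CXCL1, CXCL2, CXCL3 and CXCL5, whereas in CXCL8 a T stands on either side. TGACTCA was found in 4.2% of all promoters and in 5 of the 16, at bases -137 to -131 of CXCL8 and, as the reverse complement, in TNFSF15, CCL24, IL11 and IL23A. The RefSeq start of CXCL8 lies 63 bases from the 5′ end of the gene in the expression table. This distance was 0 bases for CXCL1, 98 for CXCL2, 118 for CXCL3 and 102 for CXCL5. By the gene ends of the expression table, GGAATTTCC of CXCL2, CXCL3 and CXCL5 therefore lies inside the gene. A match of letters describes the sequence and shows no binding.

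CXCL8, the neutrophil chemokine also known as interleukin 8 (ENSG00000169429, chr4:73740506-73743716), measured 2.69, 3.06 and 3.10 FPKM in shNC and 9.51, 7.26 and 8.72 FPKM in shScamp1 libraries. Each shScamp1 library was above every shNC library, including replicate 2. The log2 fold change was 1.49 ± 0.12 (SE, n = 3 per group), a fold change of 2.81, with a limma adjusted p of 0.00111. It stayed past the test in all 6 fits that left out 1 library, with adjusted p of at most 0.0103.

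The neighbouring CXCL1, another ELR chemokine with the same receptors, had 10.8, 10.2 and 11.5 FPKM in shNC and 8.82, 4.73 and 9.39 FPKM in shScamp1 libraries. CXCL3 had 4.26, 4.44 and 4.70 FPKM in shNC and 3.12, 0.889 and 2.74 FPKM in shScamp1 libraries. CXCL2 had 1.72, 1.48 and 1.55 FPKM in shNC and 1.00, 0.779 and 1.28 FPKM in shScamp1 libraries. In all 3 genes every shScamp1 library lay below every shNC library, and replicate 2 was the lowest. None of the 3 passed the main test with all libraries, with log2 fold changes of -0.56, -1.13 and -0.61 and limma adjusted p of 0.198, 0.139 and 0.0883. Without replicate 2 the log2 fold changes were -0.25 for CXCL1 (limma adjusted p = 0.0382), -0.59 for CXCL3 (0.00540) and -0.45 for CXCL2 (0.0825). CXCL2 passed with all libraries when only protein-coding genes entered the fit (limma adjusted p = 0.0449). CXCL5 overlapped between the groups, with 5.81, 7.05 and 6.71 FPKM in shNC and 6.42, 4.03 and 6.60 FPKM in shScamp1 libraries (log2 fold change -0.22, limma adjusted p = 0.487, and 0.0014 with 0.993 without replicate 2). CXCL6, the remaining ELR chemokine examined, had 4 reads in shNC and 5 in shScamp1 over all libraries.

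Ratios and sums within this chemokine family separated the groups to different degrees. CXCL8 stood at 0.249, 0.299 and 0.270 of the level of CXCL1 in shNC and at 1.08, 1.53 and 0.929 in shScamp1 libraries. Against CXCL3 the ratio was 0.631, 0.690 and 0.661 in shNC and 3.05, 8.17 and 3.18 in shScamp1 libraries. Both ratios separated the groups, with an exact two-sided permutation p of 0.1, the smallest that 3 against 3 libraries allow. This outcome was fixed by the values above, with CXCL8 higher and CXCL1 and CXCL3 lower in every shScamp1 library. The p-value is therefore no further support, and the ratios only describe the size of the shift. The summed level of CXCL1, CXCL2, CXCL3 and CXCL5 was 22.6, 23.2 and 24.5 FPKM in shNC and 19.4, 10.4 and 20.0 FPKM in shScamp1 libraries. With CXCL8 added, the sum was 25.3, 26.3 and 27.6 FPKM in shNC and 28.9, 17.7 and 28.7 FPKM in shScamp1 libraries, and the groups overlapped (exact two-sided permutation p = 1.0). The overlap came from shScamp1 replicate 2, since the sums of replicates 1 and 3 lay above all shNC libraries. Among stretches of 50 bases of the annotated transcripts, CXCL2 shared 12.5% with other genes, CXCL3 6.01% and CXCL1 4.81%, so some of their reads may be split between them. CXCL8 shared none.

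**Figure D3:**
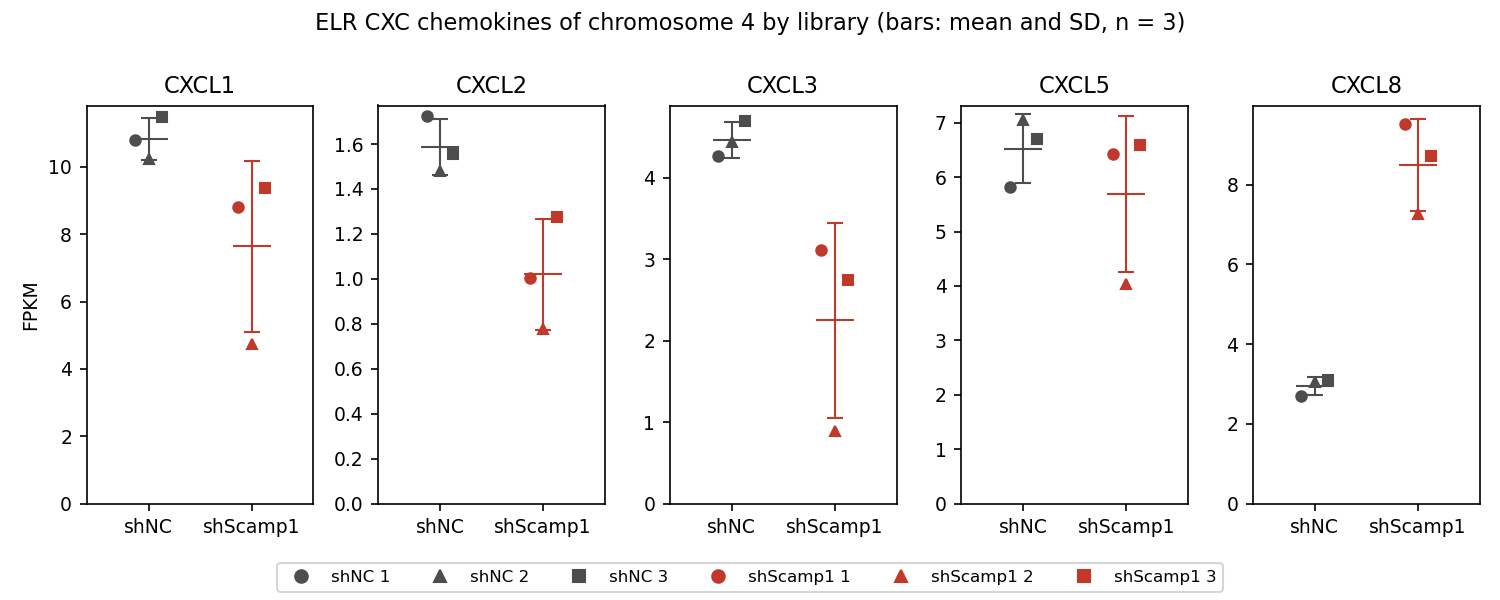
FPKM of CXCL1, CXCL2, CXCL3, CXCL5 and CXCL8 by library, each gene on its own linear axis from 0, with horizontal bars for the mean and error bars for the SD (n = 3 per group). CXCL8 lies higher in all 3 shScamp1 libraries, the points of CXCL1, CXCL2 and CXCL3 lie lower, and the triangle of shScamp1 replicate 2 is the lowest red point in every panel.

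The transmembrane CXCL16 described above was the sixth tested gene of this class. Of the interferon-inducible CXC chemokines that bind CXCR3, CXCL9 had no read, CXCL11 had 1 read in shNC and 0 in shScamp1, and CXCL10 had 1 read in shNC and 6 in shScamp1, all 6 in replicate 1.

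The CC chemokines held 1 gene that rose and 1 that fell. CCL5 (RANTES, ENSG00000271503, chr17:35871491-35880793), which attracts T cells and monocytes, measured 1.17, 1.07 and 0.899 FPKM in shNC and 3.17, 2.22 and 2.49 FPKM in shScamp1 libraries. All 3 shScamp1 libraries were above the shNC libraries. The log2 fold change was 1.24 ± 0.17 (SE, n = 3 per group), with a limma adjusted p of 0.00684 and of at most 0.0361 in the fits without 1 library. CCL5 shared 13.9% of its stretches of 50 bases with other annotated genes, and its libraries held 21 to 70 reads.

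CCL24 (eotaxin-2, ENSG00000106178, chr7:75811665-75823356), an eosinophil chemokine that signals through CCR3, was the most abundant CC chemokine in the control cells. It measured 13.8, 12.0 and 14.7 FPKM in shNC and 7.77, 3.43 and 7.20 FPKM in shScamp1 libraries. All shScamp1 libraries lay below the shNC libraries, with replicate 2 the lowest. The log2 fold change was -1.20 ± 0.31 (SE, n = 3 per group), with a limma adjusted p of 0.0494, the largest among the ligand genes that passed. It no longer passed when shNC replicate 1, 2 or 3 or shScamp1 replicate 3 was left out, with adjusted p up to 0.160. It also missed the threshold without the mean-variance trend (limma adjusted p = 0.0743), with a pseudocount of 0.01 (0.0505), with no minimum (0.101) and with a minimum of 0.1 FPKM (0.0683). Without shScamp1 replicate 2 the log2 fold change was -0.84 and the adjusted p was 0.00264. CCR3, its receptor, was the only chemokine receptor of 22 that could be tested, and its values overlapped between the groups (log2 fold change 0.32, limma adjusted p = 0.324). The other 21 had at most 18 reads in a library.

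Of the TNF superfamily, 2 ligands rose. The death ligand TNFSF10, known as TRAIL (ENSG00000121858, chr3:172505508-172523507), measured 2.05, 2.45 and 2.35 FPKM in shNC and 7.25, 6.46 and 6.89 FPKM in shScamp1 libraries. The groups lay well apart, with little spread within each. Its log2 fold change of 1.55 ± 0.10 (SE, n = 3 per group), a fold change of 2.93, was the largest of the tested ligand genes, with a limma adjusted p of 0.000547 and of at most 0.00698 in the fits without 1 library. Its promoter is shown because the gene and CCL5 belong to the ligands known to be induced by interferon. The sequence comes from RefSeq (GRCh38.p14) and ends at the base before the annotated start, and capitals mark reverse complements of GAAANNGAA, the letters of an interferon-stimulated response element in a loose form.
TNFSF10 (chr3:172523431-172523630, reverse strand): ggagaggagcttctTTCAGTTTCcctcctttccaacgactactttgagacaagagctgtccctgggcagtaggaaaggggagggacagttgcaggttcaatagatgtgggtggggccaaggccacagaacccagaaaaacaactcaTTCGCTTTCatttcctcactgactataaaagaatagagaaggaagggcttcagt

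The matches lie at bases -186 to -178 and -54 to -46 of TNFSF10. Its RefSeq start lies 77 bases from the 5′ end of the gene in the expression table. By that end, the match at -54 to -46 lies inside the gene. GAAANNGAA occurred in 6.88% of all promoters and in 4 of the 16 of the ligand genes, the others being CXCL2, CXCL3 and TNFSF9, none of which passed the test. No promoter of CCL5 was matched in the RefSeq set. TTCNNNGAA, a loose form of a STAT site, occurred in 6.57% of all promoters and in 2 of the 16, CXCL5 and IL17D.

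TNFSF15 (TL1A, ENSG00000181634, chr9:114784635-114806126), which costimulates T cells through TNFRSF25, measured 3.84, 4.01 and 4.02 FPKM in shNC and 6.14, 6.60 and 5.91 FPKM in shScamp1 libraries. The groups did not overlap, and shScamp1 replicate 2 was the highest of its group. The log2 fold change was 0.64 ± 0.07 (SE, n = 3 per group), with a limma adjusted p of 0.00368 and of at most 0.0290 in the fits without 1 library. TNFSF9 (4-1BB ligand), a T cell costimulator, had 3.26, 3.17 and 2.80 FPKM in shNC and 2.76, 2.15 and 2.42 FPKM in shScamp1 libraries. Its groups did not overlap, but it did not pass the test (log2 fold change -0.33, limma adjusted p = 0.125). TNFSF13 (APRIL) and TNFSF12 (TWEAK) overlapped between the groups, with log2 fold changes of -0.28 and -0.12 (-0.02 and -0.14 without replicate 2), and share 1263 and 553 exon bases with the annotated read-through gene TNFSF12-TNFSF13.

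The death receptors for TNFSF10 were expressed in both groups. TNFRSF10A had 8.89, 8.70 and 9.23 FPKM in shNC and 9.12, 9.33 and 10.0 FPKM in shScamp1 libraries (log2 fold change 0.08, limma adjusted p = 0.444). TNFRSF10B had 9.46, 9.56 and 9.96 FPKM in shNC and 13.2, 10.5 and 13.1 FPKM in shScamp1 libraries (log2 fold change 0.33, limma adjusted p = 0.0880). The values of TNFRSF10B did not overlap, and without shScamp1 replicate 2 it had a log2 fold change of 0.44 (limma adjusted p = 0.00176). The decoy receptor TNFRSF10D had a log2 fold change of -0.30 (limma adjusted p = 0.224). TNFRSF25, the receptor for TNFSF15, had 2.47, 2.49 and 2.36 FPKM in shNC and 2.40, 1.98 and 2.23 FPKM in shScamp1 libraries (log2 fold change -0.15, limma adjusted p = 0.378).

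None of the 7 tested interleukins and related cytokines passed the test. IL23A, the subunit that is specific to interleukin 23, measured 1.01, 1.37 and 1.15 FPKM in shNC and 2.77, 0.862 and 2.65 FPKM in shScamp1 libraries. Replicates 1 and 3 of shScamp1 lay above all shNC libraries and replicate 2 lay below them. The log2 fold change was 0.64 ± 0.43 (SE, n = 3 per group; limma adjusted p = 0.366) and without replicate 2 it was 1.15 (limma adjusted p = 0.00399). IL12A, a subunit shared by interleukins 12 and 35, measured 1.39, 0.912 and 1.36 FPKM in shNC and 1.07, 0.143 and 0.503 FPKM in shScamp1 libraries (log2 fold change -1.23 ± 0.57, limma adjusted p = 0.203). Replicate 2, with 4 reads, was again the lowest, and without it the log2 fold change was -0.63 (limma adjusted p = 0.236).

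IL11, a cytokine of the IL-6 family linked to gastric epithelial growth, measured 0.968, 1.03 and 1.09 FPKM in shNC and 0.692, 0.410 and 0.563 FPKM in shScamp1 libraries. The groups did not overlap. Its log2 fold change of -0.81 ± 0.23 (SE, n = 3 per group) had the smallest limma adjusted p of the genes that missed the threshold, 0.0705. It passed with limma-voom on recovered reads (adjusted p = 0.0349), when the mean-variance trend was left out (0.0407) and when only protein-coding genes entered the fit (0.0204). IL32, a proinflammatory cytokine, and IL17D, a member of the IL-17 family, overlapped between the groups, with log2 fold changes of -0.30 and -0.38 (limma adjusted p = 0.488 and 0.322), or -0.02 and -0.25 without replicate 2. Of the exon bases of IL17D, 1296 of 3327 are shared with an annotated antisense gene, and counting was not stated to use strand. LIF shares 175 of 3969 exon bases with such a gene.

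IFNE, an epithelial type I interferon (ENSG00000184995, chr9:21480839-21482313), was the only interferon gene tested. It measured 0.941, 1.51 and 1.14 FPKM in shNC and 2.55, 3.42 and 3.48 FPKM in shScamp1 libraries. All shScamp1 libraries were above the shNC libraries, and replicate 2 was close to replicate 3. The log2 fold change was 1.34 ± 0.20 (SE, n = 3 per group), with a limma adjusted p of 0.00942 and of at most 0.0490 in the fits without 1 library, and the libraries held 22 to 75 reads. IFNE lies within an intron of the noncoding gene MIR31HG on the same strand (chr9:21455642-21559669) and shares 0 exon bases with it. MIR31HG measured 7.28, 5.96 and 6.86 FPKM in shNC and 7.26, 7.55 and 10.1 FPKM in shScamp1 libraries (log2 fold change 0.29, limma adjusted p = 0.232). The groups overlapped in MIR31HG but not in IFNE, and whether reads of the intron entered the values of IFNE was not tested.

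The other 20 interferon genes stayed below the minimum, and 9 of them had no read. IFNA1, which shares 60.7% of its stretches of 50 bases with IFNA13, had 1, 2 and 6 reads in shNC and 8, 9 and 9 reads in shScamp1 libraries. Scaled by the authors' size factors, its ratio over the pooled libraries was 3.23 (exact 95% interval 1.47 to 7.83). The type III interferon gene IFNL1 had 1, 1 and 0 reads in shNC and 12, 0 and 5 reads in shScamp1 libraries, a ratio of 9.50 (2.25 to 84.8). The groups overlapped in IFNL1, since shScamp1 replicate 2 had no read. Such intervals cover counting error only, and reads without molecular identifiers are not independent molecules. IFNL3 had 0 reads in shNC and 4, 3 and 0 reads in shScamp1 libraries. This is at least 2.61-fold higher when shNC is set to the 3 reads over the group that a count of 0 allows, with the reads of shScamp1 taken as counted, and the exact 95% interval of the ratio starts at 1.61. The groups overlapped in IFNL3, and it shares 30.6% of its stretches with IFNL2. IFNB1 had 1 read in shNC and 2 in shScamp1 libraries.

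Of the 56 ligand genes with reads below the minimum, 14 had at least 5 reads on average in a group. Over all 56, the interval of the pooled ratio lay above 1 for 8 genes and below 1 for 4. These intervals leave out the spread between libraries. The share of such intervals among the other genes below the minimum was not computed, so the counts are no result about the ligands. CCL22, a chemokine that attracts regulatory and Th2 cells through CCR4, had 3, 11 and 7 reads in shNC and 16, 27 and 17 in shScamp1 libraries, a ratio of 3.19 (1.91 to 5.53). The groups did not overlap, and replicate 2 was the highest. CCL17, the other CCR4 ligand, had 2, 1 and 0 reads in shNC and 3, 1 and 7 in shScamp1 libraries, a ratio of 4.10 (1.08 to 22.9). The groups overlapped in CCL17, and shScamp1 replicate 3 held 7 of the 11 shScamp1 reads. IL16, a chemoattractant for CD4 cells, had 10, 16 and 12 reads in shNC and 27, 17 and 27 in shScamp1 libraries, a ratio of 2.09 (1.39 to 3.18). IL37, an anti-inflammatory cytokine of the IL-1 family, had 0 reads in shNC and 3, 2 and 5 in shScamp1 libraries, at least 3.72-fold higher against the same floor of 3 reads, with an exact 95% interval that starts at 2.50. It passed the test with no minimum (limma adjusted p = 0.0265) or with a minimum of 0.1 FPKM (0.0462). However, IL37 entered both fits only through its shScamp1 reads, and its shNC values had no spread. These 2 adjusted p-values are therefore no support for a change. IL19, a cytokine of the IL-10 family, had 2 reads in shNC and 10 in shScamp1 libraries.

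CCL20, the CCR6 ligand made by mucosal epithelium, was below its control level with 14, 13 and 20 reads in shNC and 10, 4 and 6 in shScamp1 libraries, a ratio of 0.476 (0.267 to 0.818). CSF1, the macrophage growth factor, had 15, 16 and 12 reads in shNC and 7, 5 and 5 in shScamp1 libraries, a ratio of 0.442 (0.236 to 0.791). The mucosal chemokine CCL28 had 16 reads in shNC and 1 in shScamp1 libraries, a ratio of 0.0698 (0.00167 to 0.450). CX3CL1 (fractalkine) had 14 reads in shNC and 2 in shScamp1 libraries, a ratio of 0.160 (0.0176 to 0.695). The groups did not overlap in these 4 genes. IL15 (68 and 74 reads), IL7 (23 and 23) and TNFSF13B (20 and 22) had ratios whose intervals included 1, as had IL1A (11 and 19) and IL1B (12 and 22). When the minimum was set at a mean of 10 reads, a choice made after the reads were seen, CCL22 rose by 1.25 (limma adjusted p = 0.0339) and CSF1 fell by 0.62 (limma adjusted p = 0.0345) on the log2 scale. CCL22 reached this minimum only through shScamp1 (mean reads 7 in shNC and 20 in shScamp1). CSF1 reached it only through shNC (14.3 and 5.67). These 2 adjusted p-values are therefore no support for a change.

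**Figure D4:**
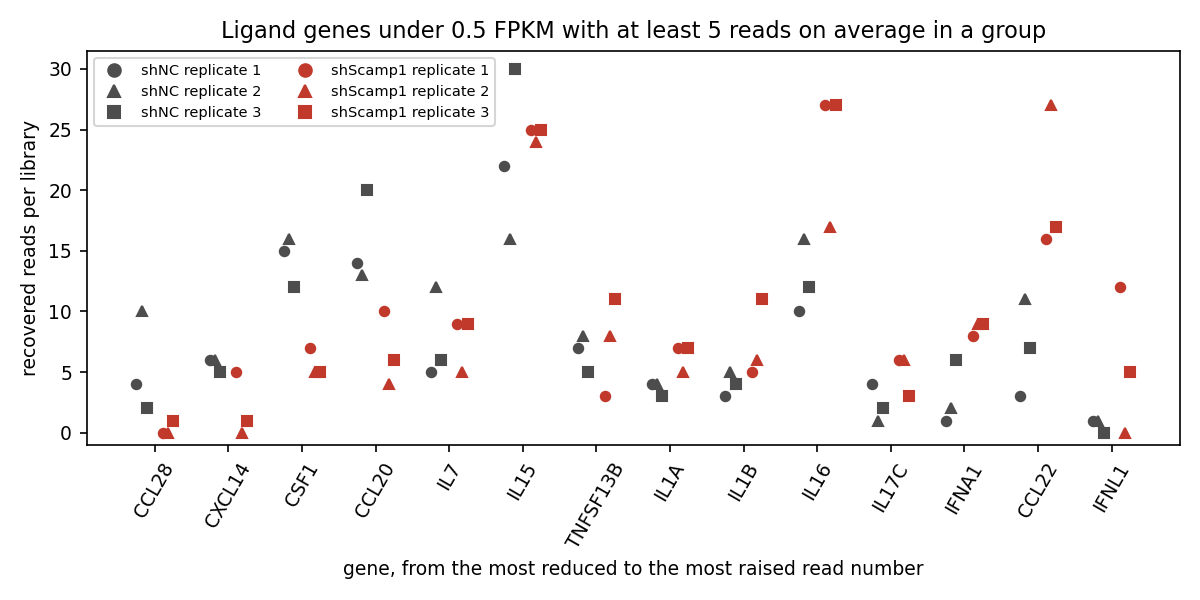
Reads per library of the 14 ligand genes under 0.5 FPKM that had a mean of at least 5 reads in a group, in order of the ratio of shScamp1 to shNC, with shNC dark, shScamp1 red and replicates by shape. CCL28, CSF1 and CCL20 on the left lie lower in all shScamp1 libraries, and IL16, IFNA1 and CCL22 lie higher, while IFNL1 has a red point at 0.

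Most receptors for these ligands that passed the test rose. Of 100 receptor genes listed, 40 were expressed enough to test, 11 rose (27.5%, against 8.82% of all genes) and 2 fell. The median log2 fold change of the 40 was 0.17, against -0.02 over all genes tested. Leaving out shNC replicate 1 gave 6 receptors that rose, and leaving out shNC replicate 2 or 3 gave 7. Leaving out shScamp1 replicate 2 gave 15 that rose and 7 that fell. That fit called 2296 genes higher and 2078 lower of all 15458 tested. Grouped by family after the values were seen, the class II cytokine receptors, which bind interferons and the IL-10 family, had 6 of 7 tested genes higher, a count that was 2 without shNC replicate 1, 4 without shNC replicate 2 or 3 or shScamp1 replicate 1 or 3, and 7 without shScamp1 replicate 2. Among the 6, IFNGR1, a chain of the interferon gamma receptor (log2 fold change 0.54, limma adjusted p = 0.0408), passed in 1 of the 6 fits without 1 library, the one without shScamp1 replicate 2. The IL-17 receptors had 1 of 4 higher and the IL-1 and IL-18 receptors 0 of 5. The TNF receptor superfamily had 2 of 14 higher and 1 lower, and the other cytokine receptors 2 of 9 higher and 1 lower. Without shScamp1 replicate 2 the TNF receptor superfamily had 5 higher and 3 lower. The IL-17 receptors then had 1 and 1, and the other cytokine receptors 2 and 3.

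IL20RA, a receptor chain for IL19, IL20, IL24 and IL26, measured 12.6, 12.5 and 11.5 FPKM in shNC and 34.7, 35.8 and 34.3 FPKM in shScamp1 libraries. The groups lay far apart (log2 fold change 1.51 ± 0.07, limma adjusted p = 0.000171). Its partner IL20RB measured 0.791, 1.31 and 1.10 FPKM in shNC and 2.13, 1.89 and 2.27 FPKM in shScamp1 libraries (log2 fold change 0.93, limma adjusted p = 0.0272), a call that was lost, with adjusted p up to 0.0963, without shNC replicate 1 or 3 or shScamp1 replicate 1 or 3. Of the ligands of these chains IL19 had the reads given above, IL24 had 1 read in shNC and 2 in shScamp1 libraries, and IL20 and IL26 had none. IFNAR1, the type I interferon receptor chain that IFNE uses, measured 7.03, 7.56 and 7.08 FPKM in shNC and 10.9, 14.6 and 12.2 FPKM in shScamp1 libraries (log2 fold change 0.78, limma adjusted p = 0.00904). Its partner IFNAR2 was below the minimum, at 0.169 to 0.341 FPKM. IFNLR1, the specific chain for type III interferons, measured 2.79, 2.77 and 3.04 FPKM in shNC and 4.69, 4.38 and 5.75 FPKM in shScamp1 libraries (log2 fold change 0.76, limma adjusted p = 0.0106). IL10RB, the partner of IFNLR1, was also below the minimum, at 0.0964 to 0.256 FPKM. Both IFNAR1 and IFNLR1 separated the groups. The limma adjusted p reached 0.0502 for IFNAR1 without shNC replicate 1, and up to 0.0562 for IFNLR1 without shNC replicate 1 or 2.

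CSF2RA, the alpha chain for GM-CSF, measured 1.76, 1.65 and 1.35 FPKM in shNC and 4.18, 4.01 and 3.60 FPKM in shScamp1 libraries (log2 fold change 1.26, limma adjusted p = 0.00206). Its ligand CSF2 had 12 reads in shNC and 14 in shScamp1 libraries. CSF2RB, the other chain of this receptor, had at most 2 reads in a library. The death domain receptor TNFRSF21 rose from 9.05, 8.40 and 9.56 FPKM to 14.4, 17.4 and 15.2 FPKM (log2 fold change 0.79, limma adjusted p = 0.00412). The 2 receptors that fell, TNFRSF19 and IL27RA, had log2 fold changes of -0.60 and -0.55 (limma adjusted p = 0.00349 and 0.00603). Of the receptors for the ELR chemokines, CXCR1 and CXCR2 were both below the minimum, CXCR1 at 0.0587 to 0.304 FPKM and CXCR2 at 0 to 0.0212 FPKM. LIFR, the receptor chain for LIF, was below the minimum, at 0.111 to 0.191 FPKM in shNC and 0.0431 to 0.0691 FPKM in shScamp1 libraries. Its groups did not overlap. The signaling partner of LIFR, IL6ST, had 7.82 to 8.71 FPKM in shNC and 7.48 to 10.5 FPKM in shScamp1 libraries.

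**Figure D5:**
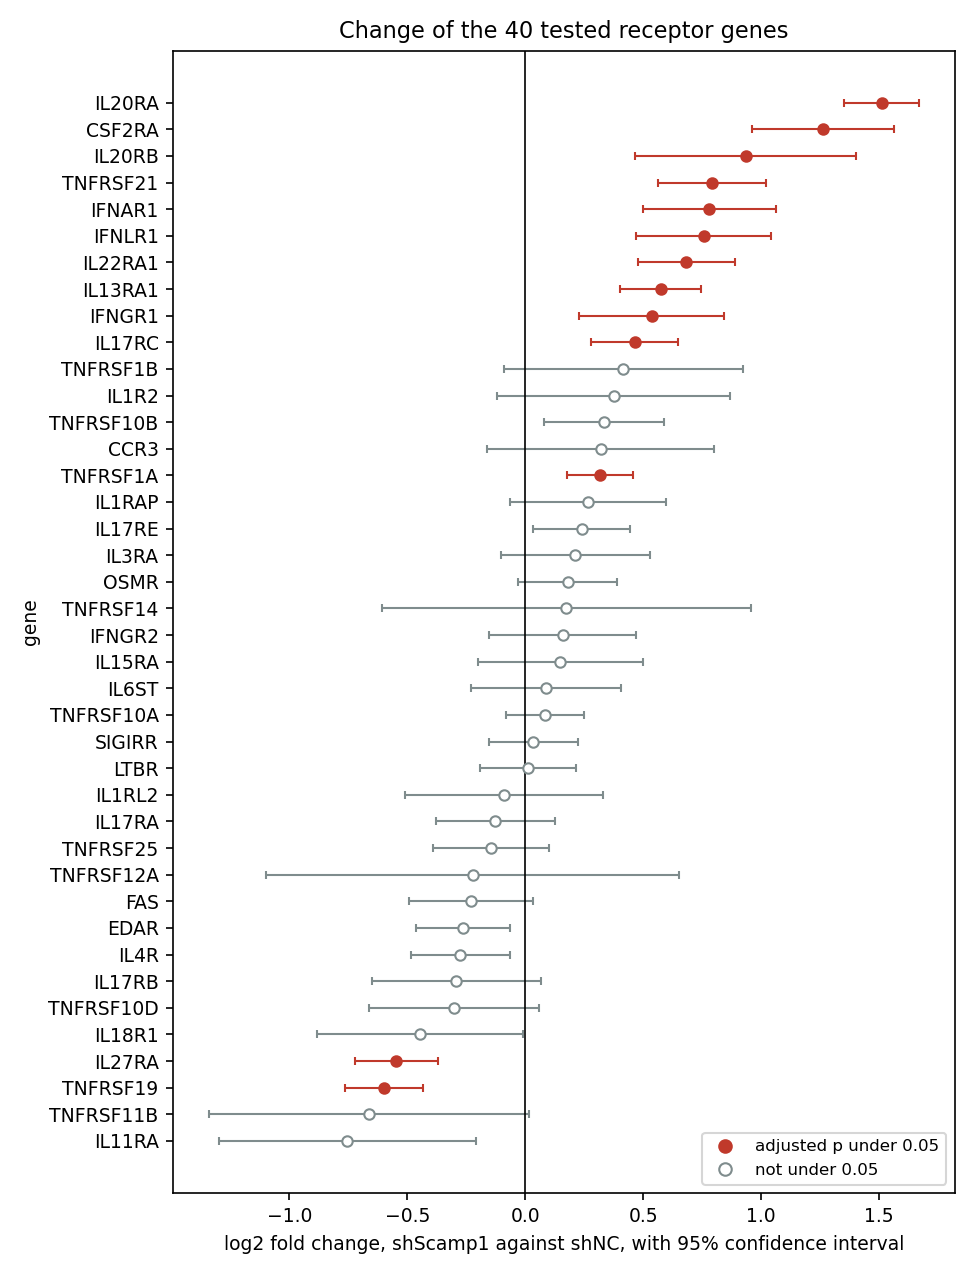
Log2 fold change of each of the 40 tested receptor genes, shScamp1 against shNC, with its 95% confidence interval (3 libraries per group). Filled red points mark an adjusted p under 0.05, with IL20RA at 1.51 and CSF2RA at 1.26 at the top, 11 genes higher in all, and IL27RA and TNFRSF19 lower.

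Soluble antagonists, maturation enzymes and regulators of these ligands completed the pathway. These lists are short and were drawn up with earlier results known, so their counts are to be set beside the 8.82% of all genes tested that rose and the 5.17% that fell. IL1RN, the natural antagonist of the IL-1 receptor, measured 10.7, 10.6 and 9.82 FPKM in shNC and 26.6, 21.7 and 24.8 FPKM in shScamp1 libraries (log2 fold change 1.22, limma adjusted p = 0.000942). The stem cell factor KITLG fell from 6.99, 6.77 and 6.67 FPKM to 2.01, 2.45 and 2.08 FPKM (log2 fold change -1.61, limma adjusted p = 0.000510). These were the 2 that passed among 7 tested genes of ligands and antagonists outside the symbol rule. Of 6 tested genes for processing and release, FURIN (log2 fold change 0.48, limma adjusted p = 0.00511) and CASP4 (0.42, 0.0188) rose and none fell (33.3% higher). Of 20 tested regulators of NF-kappaB, the factor that binds kappaB sites, the feedback inhibitor TNFAIP3 (0.85, limma adjusted p = 0.00158) and its partner TNIP1 (0.51, 0.00997) rose and none fell, and this 10.0% that rose is close to the share of all genes. Of 17 tested genes of the IRF, STAT, JAK and SOCS families, IRF7 (1.42, limma adjusted p = 0.000547) and STAT2 (1.20, 0.000510) were among those that rose, and STAT5B fell (-0.37, 0.0208). The calls of CASP4 and STAT5B were lost without any 1 of the shNC replicates or without shScamp1 replicate 3. That of STAT5B was also lost without shScamp1 replicate 1, and that of TNIP1 without shNC replicate 1 or 2. Without shScamp1 replicate 2, where 2296 genes were higher and 2078 lower of 15458 tested, the counts of these lists moved. The processing genes had 2 higher and 1 lower, and the NF-kappaB regulators 3 and 0. The IRF, STAT, JAK and SOCS genes had 6 and 1, and the ligands and antagonists outside the rule 1 and 2. The list of interferon-inducible ligands held 7 of the 118 and was a choice, not a count of all such genes. Its 2 tested genes, CCL5 and TNFSF10, are the genes already given above as higher. The 5 tested ELR chemokines held 1 gene that rose, CXCL8, and none that fell, with a median log2 fold change of -0.56, whereas without shScamp1 replicate 2 CXCL1 and CXCL3 fell and the median was -0.25.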

How the data were processed

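RNA of 3 shNC and 3 shScamp1 NCI-N87 libraries was sequenced, and the authors deposited 1 table of FPKM per gene and library. The submitters' processing notes name HISAT2 2.0.5, featureCounts 1.5.0-p3, DESeq2 1.20.0 and the build hg38, without their roles or strand settings. The coordinates of all 58735 genes equal GENCODE 29. FPKM multiplied by gene length gave whole reads for 100% of values above 0 (tolerance 0.01 read), from which the depth was recovered. The deposited values already included a scaling between libraries. The 15556 genes whose mean reached 0.5 FPKM were tested with limma 3.58.1 in R 4.3.3 on log2(FPKM + 0.1), with a mean-variance trend and Benjamini-Hochberg adjustment, two-sided, called at an adjusted p under 0.05. The limma test was tested on simulated data. Exact intervals of read ratios, permutation tests and motif searches used Python 3.11.15 with scipy 1.17.1, and replicate numbers were not used as a block. The gene members, the lists and the tests were chosen with earlier results of these data known. Genes were named where a ligand passed the test, was among the 5 highest or averaged at least 5 reads in a group, with up to 6 passing genes per list and SCAMP1; any other gene in the text was picked with its values in view. Some genes under this rule are left out of the text. Promoters were taken from RefSeq (GRCh38.p14), which matched 89 of the 118 genes. Alternatives covered the pseudocount, filter, scaling, trend, biotypes, limma-voom, a replicate block and leaving out each library. The authors' other assays and cell lines were not analysed here.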

Additional observations from a re-analysis of the deposited data

How the results depend on the processing

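The 5 ligand genes that rose did so under every alternative run, whereas the count of those that fell depended on the settings. That count was 1 in the main analysis, 0 with a pseudocount of 0.01, 0 with no filter and 0 with a filter at 0.1 FPKM, 3 with protein-coding genes only, 2 with limma-voom, 3 with the filter at a mean of 10 reads (chosen after the reads were seen), and 0 to 3 when 1 library was left out. The 3 with the filter at a mean of 10 reads include CSF1, which reached that filter only through its shNC reads. A pseudocount of 1 left 3 ligand genes past both criteria, against 5. The median log2 fold change of the ligand genes was 0.087 with no filter and 0.12 with the filter at 0.1 FPKM, where 77 and 40 genes entered it. Receptors past the test numbered 13 in the main analysis and 8 to 22 when 1 library was left out. Replicate numbers did not pair the libraries (correlations of same-numbered deviations -0.035, 0.032 and 0.067), and a replicate block gave 5 ligand genes higher and 1 lower, with 9 receptors. Over all genes the block gave 704 higher and 254 lower, against 1372 and 805. Scaling by the total moved the median of all genes to -0.10 and the calls to 1138 higher and 1266 lower (47.3% higher, against 63.0%), with the ligand counts at 5 and 1. Between 651 and 2296 genes were higher and 166 to 2078 lower when 1 library was left out. Depth limits the genes below the minimum most, and 37 of them never exceeded 5 reads.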
